A study of Mus musculus with 8 samples.

Results

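*CYTB* is the gene for cytochrome b in the mouse mtDNA, and the events described here are the deletions and duplications listed in and around it. An event was chosen by its position alone: both its start and its end had to lie between 14071 and 15355, and the end had to come after the start. This window reaches from the first base of the tRNA-Glu gene to the last base of the tRNA-Thr gene, with *CYTB* between them. It held 11 of the 72 entries in the lists of all libraries, where an entry is 1 event in 1 library. These were 9 duplications and 2 deletions, and they describe 10 of the 56 distinct events.

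The 8 libraries came from 8 C57BL/6N mice, with 1 male and 1 female in each of 4 groups. Hearts were taken at 8 weeks of age from mice with both *Rnaseh1* alleles flanked by loxP sites (*L/L*) and from mice of that genotype that also carried Ckmm-cre (*L/L, cre*), which removes the flanked exon in heart and skeletal muscle. Brains were taken at 23 to 25 weeks from mice with intact *Mgme1* (*Mgme1+/+*) and from *Mgme1* knockout mice (*Mgme1-/-*). Total DNA was used for all brains and for the hearts of females, and mitochondrial DNA for the hearts of males, so that sex and kind of DNA cannot be told apart in the hearts.

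Cytochrome b is the only subunit of respiratory complex III that is encoded by mtDNA, and it carries the haems and quinone sites through which electrons pass. In mouse mtDNA its gene is followed by the gene for tRNA-Thr, then by that for tRNA-Pro and the non-coding region (NCR), where replication of the leading strand starts. RNase H1, the product of *Rnaseh1*, degrades RNA in RNA-DNA hybrids, and MGME1 is an exonuclease that trims single-stranded DNA ends in mitochondria.

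The window covers 1285 bp, or 7.88% of the 16299 bp circle of GRCm38. *CYTB* itself lies at chrM:14145-15288 on the plus strand, as a single coding stretch of 1144 bp that overlaps 0 other annotated genes. The tRNA-Glu gene precedes it at chrM:14071-14139 on the minus strand, and the tRNA-Thr gene follows directly at chrM:15289-15355 on the plus strand. Of the 10 distinct events, 9 lay wholly inside the *CYTB* gene, and the remaining one ran from *CYTB* into the tRNA-Thr gene.

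A single event of the window was listed in more than 1 library. It was a duplication of 111 bp, chrM:14439-14549, listed for both *Mgme1-/-* mice. The duplicated segment is shown with the 4 bases that follow it (GRCm38, plus strand), because the deposited direct repeat, GGAC, stands at its first bases and again directly behind its last base. The capitals mark both copies.

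segment chrM:14439-14553: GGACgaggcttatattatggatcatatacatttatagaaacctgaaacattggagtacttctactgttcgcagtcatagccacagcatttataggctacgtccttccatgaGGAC

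The segment begins on the first base of codon 99 and ends on the last base of codon 135, so that it spans 37 whole codons of *CYTB*. The female *Mgme1-/-* brain listed a second duplication whose start lay 7 bp and whose end 8 bp before those of the shared one, at chrM:14432-14541. Its deposited repeat is TCCTTC, and the copies of this repeat also lie 111 bp apart, although the listed segment measures 110 bp. The pair of repeats belongs to a stretch of 15 bases that stands 111 bp further on in a similar form, with 10 of the 15 bases identical, and the capitals mark these identical bases (GRCm38, plus strand).

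chrM:14428-14442: TCCTTCatgtcGGAC
chrM:14539-14553: TCCTTCcatgaGGAC

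The surroundings of both ends are shown for the other events that illustrate the range of repeats, again on the plus strand of GRCm38 and with the deposited direct repeat in capitals. They are a pair of further duplications that overlap the shared one, the duplication that reaches the tRNA-Thr gene, both deletions, and the only event of the window without a deposited repeat.

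duplication 14476 to 14584, start: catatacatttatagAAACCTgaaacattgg
duplication 14476 to 14584, end: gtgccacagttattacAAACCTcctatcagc
duplication 14516 to 14659, start: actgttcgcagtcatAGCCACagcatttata
duplication 14516 to 14659, end: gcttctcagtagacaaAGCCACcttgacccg
duplication 15218 to 15343, start: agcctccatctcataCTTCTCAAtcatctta
duplication 15218 to 15343, end: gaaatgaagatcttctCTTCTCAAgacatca
deletion 14603 to 14940, start: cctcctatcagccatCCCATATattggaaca
deletion 14603 to 14940, end: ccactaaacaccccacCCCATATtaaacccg
deletion 14700 to 15179, start: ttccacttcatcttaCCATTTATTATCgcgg
deletion 14700 to 15179, end: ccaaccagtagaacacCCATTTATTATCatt
duplication 14910 to 14971, start: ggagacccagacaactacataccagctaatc
duplication 14910 to 14971, end: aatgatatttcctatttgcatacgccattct

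In each pair with a repeat, the first copy starts at the first base of the segment and the second copy follows its last base, so the copies lie exactly 1 segment length apart. This held for 8 of the 10 *CYTB* entries with a deposited repeat, and likewise for 47 of the 58 such entries elsewhere in the mtDNA. The exceptions in *CYTB* were the duplication from 14432 to 14541, described above, and a duplication of 67 bp from 14781 to 14847. The repeat of the latter, TCA, has copies 64 bp apart.

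The heteroplasmy of an event is the share of supporting reads among the supporting and reference reads at its breakpoints, in percent. The number of both kinds of read, called depth here, is known only at listed events. Listed events numbered only 3 (male) and 2 (female) for the *L/L* hearts and 7 (male) and 2 (female) for the *L/L, cre* hearts. The median depth for the *L/L* hearts was 27178 reads (male) and 9941.5 reads (female), and for the *L/L, cre* hearts 11729 reads (male) and 1655.5 reads (female). For the *Mgme1+/+* brains it was 9210 (male) and 8660 (female), and for the *Mgme1-/-* brains 7035 (male) and 10442 (female). The shallowest library was thus the female *L/L, cre* heart, and the deepest the male *L/L* heart. No list held an event with fewer than 2 supporting reads, and 2 reads amount to 0.121% of the median depth of the shallowest library, to 0.00736% of that of the deepest and to between 0.0191% and 0.0284% for brains. An event that is not listed therefore had fewer than 2 reads or was not reported, which is not the same as a count of 0. With 3 reads as the floor, the limits for *Mgme1+/+* brains were 0.0326% (male) and 0.0346% (female), and those for *Mgme1-/-* brains 0.0426% (male) and 0.0287% (female).

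**Figure D1:**
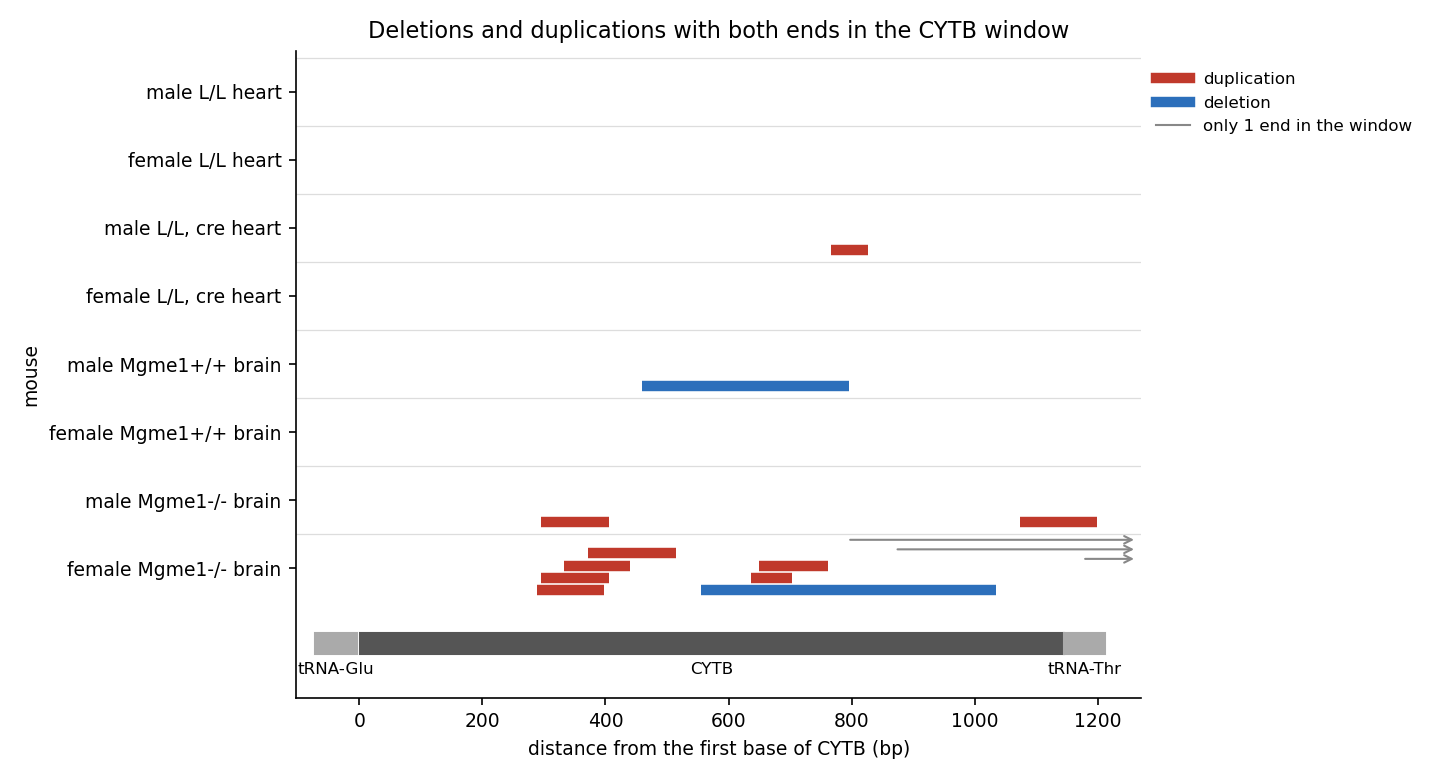
Map of the events with both ends in the *CYTB* window, with 1 band per mouse and the distance from the first base of *CYTB* in bp on the horizontal axis. Red bars are duplicated segments, blue bars deleted segments, and grey arrows mark duplications with only 1 end in the window, which run on to the right; 4 of the 8 mice have no bar, and the female *Mgme1-/-* brain has 7.

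Duplications in *CYTB* were listed mainly in the *Mgme1-/-* brains, with 2 in the male and 6 in the female, against 0 in each *Mgme1+/+* mouse. In the hearts, the male *L/L, cre* mouse had 1 duplication, and the female *L/L, cre* mouse and both *L/L* mice had 0. Over the whole mtDNA the *L/L, cre* hearts had 4 (male) and 2 (female) duplications and the *L/L* hearts 0 (male) and 1 (female). A deletion was listed once for the *Mgme1+/+* male and once for the *Mgme1-/-* female, and the other 6 libraries had 0. Deletions of the whole mtDNA numbered 3 (male) and 4 (female) for *Mgme1+/+*, 1 (male) and 4 (female) for *Mgme1-/-*, 3 (male) and 1 (female) for *L/L*, and 3 (male) and 0 (female) for *L/L, cre*. As the map of events along *CYTB* shows, 4 libraries thus had no event in the window: both *L/L* hearts, the female *L/L, cre* heart and the female *Mgme1+/+* brain. The *Mgme1-/-* and *Mgme1+/+* brains did not overlap in the number of *CYTB* duplications, nor in that of all duplications of the mtDNA (16 and 25 against 2 and 3), so the separation is not particular to *CYTB*. With at least 3 supporting reads the *CYTB* counts were 1 and 0 against 0 and 0, which overlap, and the numbers of deletions overlapped as listed.

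The shared duplication from 14439 to 14549 had a heteroplasmy of 0.0954% in the male *Mgme1-/-* brain (95% Wilson interval 0.0462 to 0.197; 7 of 7339 reads) and of 0.0180% in the female (0.00493 to 0.0655; 2 of 11132 reads). The intervals overlap between 0.0462% and 0.0655%. In the male this was the only event of the window with more than 2 supporting reads, and its lower bound stood above the heteroplasmies of all other *CYTB* entries but below all of their upper bounds. At the level of the male, 8.79 and 8.26 supporting reads would be expected at the median depths of the male and female *Mgme1+/+* brains, where the event was not listed. At the level of the female, the expected numbers were 1.66 and 1.56 reads, fewer than the smallest number in any list, so that an event at this level may go unlisted at these depths. In the hearts, the level of the male corresponds to 25.9 and 9.48 reads for the *L/L* male and female and, with cre, to 11.2 and 1.58 reads. At their median depths, 3 of the 4 hearts would thus be expected to reach 2 reads. No heart listed the event, and the depth of the hearts at its position is not known. The level of the female corresponds to 4.89 and 1.79 reads in the male and female *L/L* mice and, with cre, to 2.11 and 0.298 reads, respectively.

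The other duplication of the male *Mgme1-/-* brain ran from 15218 in *CYTB* to 15343 in the tRNA-Thr gene and had a heteroplasmy of 0.0284% (0.00780 to 0.104; 2 of 7035 reads). It repeats the last codons of *CYTB*, the end of the gene and most of the tRNA-Thr gene, 126 bp in all, and its last base lies 12 bp before the end of the window.

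In the female *Mgme1-/-* brain, the other 5 duplications of *CYTB* each rested on 2 reads. Their heteroplasmies were 0.0178% (0.00489 to 0.0650; 110 bp from 14432 to 14541), 0.0185% (0.00506 to 0.0673; 109 bp from 14476 to 14584) and 0.0189% (0.00519 to 0.0690; 144 bp from 14516 to 14659). A duplication of 67 bp from 14781 to 14847 had 0.0188% (0.00517 to 0.0687), and a duplication of 114 bp from 14793 to 14906, with the repeat AA, had 0.0176% (0.00483 to 0.0642). All of these intervals contain the values of all the others, so the duplications of this brain have no order in heteroplasmy.

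The duplications of the female *Mgme1-/-* brain lay in separate places of the gene. Of the 6, 4 overlapped one another, with 26 bp from 14516 to 14541 common to all of them, and together they covered 228 bp from 14432 to 14659. The shared duplication of the male falls in the same stretch. The other 2, from 14781 to 14847 and from 14793 to 14906, also overlapped each other in part. The 6 duplications together covered 354 bp, or 30.9% of *CYTB*, and the first 361 bp of the window held no end of any event.

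The heart duplication, in the male *L/L, cre* mouse, spanned 62 bp from 14910 to 14971 and had a heteroplasmy of 0.0166% (0.00454 to 0.0604; 2 of 12070 reads). It starts just behind the last duplication of the female *Mgme1-/-* brain and is the shortest event of the window. The male *L/L* heart, made from the same kind of DNA, had a higher median depth and no event in the window.

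Both deletions lay inside *CYTB* and rested on 2 reads. The one of the male *Mgme1+/+* brain removed 338 bp from 14603 to 14940 and had a heteroplasmy of 0.0218% (0.00597 to 0.0794; 2 of 9182 reads). The one of the female *Mgme1-/-* brain removed 480 bp from 14700 to 15179 and had 0.0192% (0.00528 to 0.0702; 2 of 10392 reads). They differ by far less than the counting error, and overlap in part without sharing an end.

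**Figure D2:**
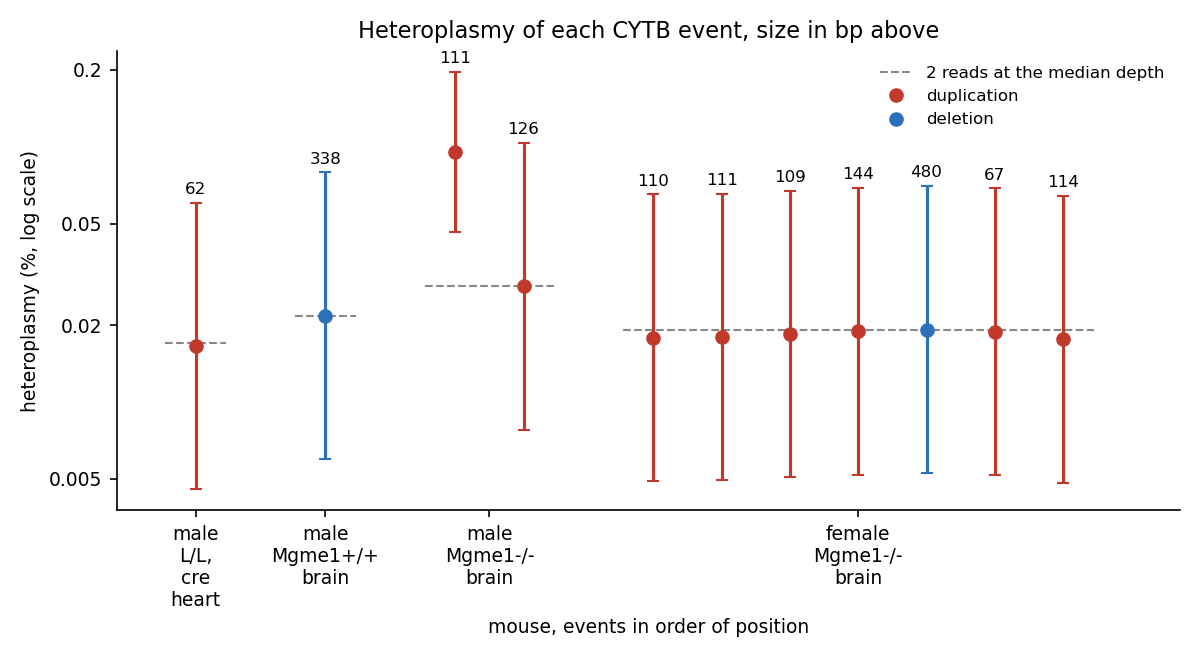
Heteroplasmy of each *CYTB* event in percent on a log scale, by mouse and in order of position, with 95% Wilson intervals as bars and the size of the event in bp above each; mice without an event are left out. The dashed lines give 2 reads at the median depth of each library, and only the 111 bp duplication of the male *Mgme1-/-* brain stands clearly above its line.

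Summed over the *CYTB* duplications of a library, the heteroplasmy of *Mgme1-/-* brains reached 0.124% (male) and 0.110% (female), and that of either *Mgme1+/+* brain was 0%. These sums were close to each other although the male had 2 duplications and the female 6, and they rest on 9 and 12 supporting reads. In the male, most of the sum came from the shared duplication, while in the female every duplication contributed a similar share. In the hearts the sum was 0.0166% in the male *L/L, cre* mouse and 0% in the other 3 mice. For brains and hearts alike, 0% means that no *CYTB* duplication was listed. It does not mean that such molecules were absent, as an event with fewer than 2 reads may go unlisted.

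Since the window was chosen with results of these lists known, the comparisons of groups are a description. The number of *CYTB* duplications was 4 ± 2.83 (SD, n = 2) for *Mgme1-/-* and 0 ± 0 (SD, n = 2) for *Mgme1+/+* mice, a difference larger than the spread in either group, and p took the smallest value that 2 mice against 2 allow (exact 2-sided permutation test, p = 0.333). When heteroplasmies were summed, the same groups had 0.117% ± 0.0100 (SD, n = 2) and 0% ± 0 (SD, n = 2; exact permutation test, p = 0.333). The difference in number was 2 within the males and 6 within the females. When only events with at least 3 supporting reads were counted, 1 duplication was left in the male *Mgme1-/-* brain. The difference in number then fell from 4 to 0.5, and with at least 10 reads it was 0. The difference in summed heteroplasmy fell from 0.117 to 0.0477 percentage points with at least 3 reads, and to 0 with at least 10.

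In the hearts, *CYTB* duplications numbered 0.5 ± 0.707 (SD, n = 2) in *L/L, cre* and 0 ± 0 (SD, n = 2) in *L/L* mice (exact permutation test, p = 1), and the difference did not exceed the spread. The counts of all duplications, 4 and 2 against 0 and 1, did not overlap between these groups, whereas those in *CYTB* did. These counts of all duplications rest on 10 (male) and 5 (female) reads in *L/L, cre* and 0 (male) and 2 (female) in *L/L* hearts. No minimum of reads was applied to them. From its sequencing, the paper reported no mtDNA duplications in the *Rnaseh1* knockout hearts. Deletions in *CYTB* numbered 0.5 ± 0.707 (SD, n = 2) in both groups of brains (exact permutation test, p = 1). The sums of their heteroplasmies were 0.00960% ± 0.0136 (SD, n = 2) for *Mgme1-/-* and 0.0109% ± 0.0154 (SD, n = 2) for *Mgme1+/+* mice, a difference well within either SD (exact permutation test, p = 1).

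**Figure D3:**
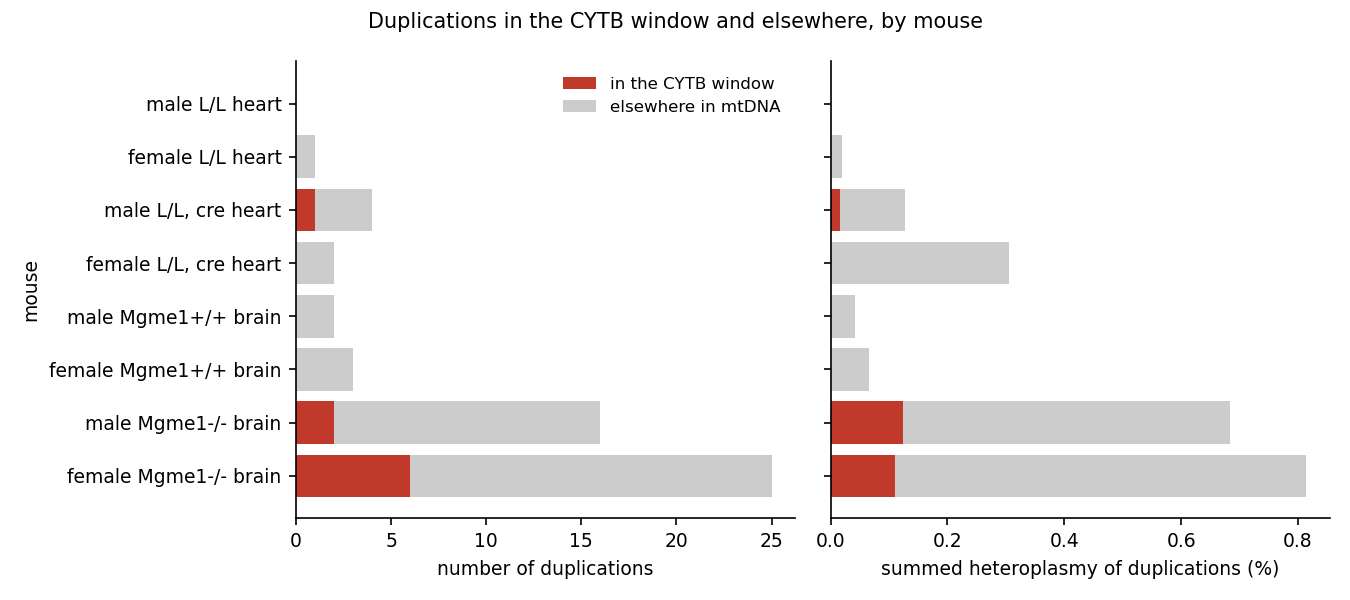
Number of duplications (left) and their summed heteroplasmy in percent (right) for each mouse, with duplications in the *CYTB* window in red and those elsewhere in the mtDNA in grey. The red parts of the *Mgme1-/-* brains differ in number, 2 and 6, but little in summed heteroplasmy, 0.124% and 0.110%.

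Duplications were more numerous in the *Mgme1-/-* brains over the whole mtDNA as well, and the *CYTB* window held 2 of 16 in the male (12.5%) and 6 of 25 in the female (24%), beside 7.88% of the circle. In the male *L/L, cre* heart it held 1 of 4 (25%), a share as high as in these brains, and 13.0% of the summed heteroplasmy of all duplications. The *Mgme1+/+* brains had only 2 and 3 duplications in all, none of them in *CYTB*. As a share of the summed heteroplasmy of all duplications, *CYTB* accounted for 18.1% (male) and 13.5% (female) in the *Mgme1-/-* brains, as the bars by mouse show. Whether *CYTB* differs in this from the rest of the mtDNA was not tested.

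Among the rRNA and protein genes, counted with both ends inside a gene, *CYTB* had 5.24 duplications per kb in the female *Mgme1-/-* brain, followed by *ND1* with 3.13, *COX3* with 1.28, the 16S rRNA gene with 1.26 and *ND5* with 1.10. In the male *Mgme1-/-* brain the value for *CYTB*, 0.874 per kb from 1 duplication, stood below those for *COX3* (1.28) and the 12S rRNA gene (1.05), which also had 1 each. The order of these genes thus differed between the brains, and *CYTB* came first among them in the female alone. Every *CYTB* duplication of the female rested on 2 reads, and with at least 3 supporting reads this brain had 0 in *CYTB*. The NCR and the tRNA genes were not part of this count.

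The sizes of *CYTB* events separated by type. The 8 distinct duplications measured 62 to 144 bp (median 110.5) and the 2 deletions 338 and 480 bp. The 37 distinct duplications elsewhere ranged from 57 to 15926 bp (median 136) and the 9 deletions from 252 to 563 bp (median 417), and the window itself admits no event longer than 1285 bp. A duplication of a short arc and a deletion of the rest of the circle give the same junction, and for the shared duplication the other arc, as deposited, would be 16188 bp.

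The direct repeats had 0 to 8 bases (median 5) at the distinct duplications of *CYTB*, and 7 and 12 bases at its deletions. Elsewhere, duplications also had a median of 5 bases (0 to 14) and deletions a median of 8 (2 to 14). The longest repeat of the window, CCATTTATTATC, thus belonged to the 480 bp deletion of the female *Mgme1-/-* brain, and the longest at a duplication, CTTCTCAA, to the one that ends in the tRNA-Thr gene.

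The size was a multiple of 3 for 5 of the 10 distinct *CYTB* events (50%) and for 22 of the 46 events elsewhere (47.8%). These 5 were the duplications of 111, 114, 126 and 144 bp and the deletion of 480 bp. Intact *CYTB* has 381 codons before its stop codon, which poly(A) addition completes. On the reference sequence, a tandem insertion of the segments of 111, 144 and 114 bp would add 37, 48 and 38 codons and leave the frame open, with the stop at codon 419, 430 and 420, respectively, and the loss of 480 bp would remove 160 codons and leave the stop at codon 222.

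The sizes that are no multiple of 3 shift the frame. On the reference, the first stop codon then falls at codon 147 for the 110 bp duplication, at 166 for the 109 bp duplication, at 236 for the 67 bp duplication, at 283 for the 62 bp duplication of the heart and at 156 for the 338 bp deletion. For the 110 bp duplication the shift depends on the listed size, since the copies of its repeat lie 111 bp apart, a multiple of 3. All of these are readings of the sequence alone, and RNA or protein from such molecules was not analysed here.

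Just outside the rule were duplications with only 1 end in the window, all 3 of them in the female *Mgme1-/-* brain and all reaching into the NCR. One of 1160 bp from 14935 in *CYTB* to 16094 had 4 reads and 0.0390% (0.0151 to 0.100), with the repeat CCCCACCCC at its ends. One of 750 bp from 15012 in *CYTB* to 15761 had 0.0183% (0.00502 to 0.0667; 2 reads), and one of 906 bp from 15317 in the tRNA-Thr gene to 16222 had 0.0230% (0.00630 to 0.0837; 2 reads). These are longer than every duplication inside the window, and with them the female *Mgme1-/-* brain would have 9 duplications with an end in it.

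The nearest end before the window, at 14022, lies 49 bp from it and belongs to events that run from *ND5* into *ND6*. A duplication from 13470 to 14022 was listed for both *Mgme1-/-* brains, with 4 reads and 0.0576% (male) and 9 reads and 0.0846% (female). Deletions with that end were listed for the male *L/L* and *L/L, cre* hearts, the female *Mgme1+/+* brain and both *Mgme1-/-* brains. The nearest end behind the window, at 15366 in the tRNA-Pro gene, lies 11 bp from it. It belongs to a duplication of the female *Mgme1-/-* brain with 2 reads and 0.0177% (0.00485 to 0.0645).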

How the data were processed

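Per the study's methods, the authors prepared DNA libraries with the TruSeq Nano kit, aligned the reads directly to the mouse mtDNA of GRCm38, removed PCR duplicates and listed deletions and duplications with MitoSAlt, which clusters gapped reads. The MitoSAlt version and its cut-offs are not given in the sources used here. The authors deposited counts of supporting and reference reads for each event, without normalization. The authors also deposited the heteroplasmy in percent, with the start, end and size in bp, bases at both ends and any direct repeat.

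The members and lists were chosen with earlier results of these data known. Events were taken as listed, with no further filter. The heteroplasmy recomputed from the reads matched to 4 decimals in 72 of 72 entries, and the bases at both ends matched the reference in all 72. Genes came from the RefSeq annotation of GRCm38. The pairs of mice by sex come from the labels. Group means were compared by exact 2-sided permutation tests, 8 in all, whose smallest p is 0.333 and becomes 1 after adjustment over the 8. Expected reads are the heteroplasmy of an event times the median depth of a library. Stop codons were read with the vertebrate mitochondrial code. Intervals are 95% Wilson intervals, and the floor is 3 reads at the median depth; both cover counting error only. Nuclear copies of mtDNA, to which reads were not aligned, were not searched here. Alternatives were minima of 3 and 10 reads and of 0.05%, the floor of the shallowest library, other definitions of the window, merging of events within 10 bp, recomputed heteroplasmies, leaving out each mouse, and pairs of the same sex. The scripts were tested on simulated events. The scripts ran under Python 3.11.15 with SciPy 1.17.1, NumPy 2.4.6 and, for figures, matplotlib 3.10.9.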

Additional observations from a re-analysis of the deposited data

How the results depend on the processing

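Values are differences between group means, knockout minus control, in events per library or in percentage points, and a value counted as moved beyond 1.5 times the main one. Most of them rest on events with 2 reads, which the minima remove. The number of *CYTB* duplications in the brains, 4, became 0.5 with at least 3 reads, 0 with at least 10 reads, and 0.5 with at least 0.05% and also at the floor of the shallowest brain library, 0.0426%. Leaving out a mouse gave 2 to 6, and the male pair alone 2. With both ends in the gene or with near events merged it was 3.5, and with either end in the window 5.5. Their summed heteroplasmy, 0.117, became 0.0477 with at least 3 reads, with at least 0.05% and at the floor, and 0 with at least 10 reads, while leaving out a mouse gave 0.110 to 0.124.

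In the hearts, the number of duplications, 0.5, became 0 under all 4 minima (at least 3 reads, at least 10 reads, at least 0.05%, and the floor of 0.181%). Leaving out a mouse gave 0 to 1, the male pair alone 1 and the female pair alone 0. Their summed heteroplasmy, 0.0083, likewise became 0 under all 4 minima. Leaving out a mouse gave 0 to 0.0166, the male pair alone 0.0166 and the female pair alone 0.

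For deletions in the brains, the difference in number was 0. Leaving out a mouse gave -0.5 to 0.5, the male pair alone -1 and the female pair alone 1. The difference in summed heteroplasmy, -0.0013, became 0 under all 4 minima (at least 3 reads, at least 10 reads, at least 0.05%, and the floor). It reversed to 0.0096 without the male *Mgme1+/+* brain, to 0.0083 without the male *Mgme1-/-* brain and to 0.0192 in the female pair alone. Without the female *Mgme1+/+* brain it was -0.0122, without the female *Mgme1-/-* brain -0.0109, and in the male pair alone -0.0218. Each deletion stands in 1 mouse, which by construction decides the sign. For deletions in the hearts, all values were 0. No other alternative moved a value.

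With 2 mice in a group, the exact permutation test used here cannot reach a threshold of 0.05. Depth limits the female *L/L, cre* heart most, where 2 reads make 0.121% of the median depth, a level no *CYTB* event reached; for the other hearts this share was 0.00736% to 0.0201%, and for the brains 0.0191% to 0.0284%.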

Other observations

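The distinct *CYTB* duplications of the *Mgme1-/-* brains measured 67, 109, 110, 111, 114, 126 and 144 bp. Within 5 bp of the 111 bp of the shared duplication, from 106 to 116 bp, the lists held 6 distinct duplications of the whole mtDNA, with 2 entries for the *Mgme1-/-* male, 6 for the *Mgme1-/-* female and 0 for each of the other 6 mice. In *CYTB* these were the duplications of 109, 110, 111 and 114 bp, and those of 67, 126 and 144 bp fell outside the span. The other 2 lay in the NCR, at 15468 to 15579 (112 bp, 7 reads in the male and 5 in the female, repeat ACATTAAACTA) and at 15523 to 15633 (111 bp, 2 reads in the female, repeat GTCATAAA). Duplications of any size numbered 16 in the *Mgme1-/-* male and 25 in the *Mgme1-/-* female, and 0 to 4 in each of the other 6 mice. The span of sizes was centred on the shared duplication, which is itself counted, and was chosen after the values were seen. Whether the number of duplications in this span is unusual for such lists was not tested.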
